A study of Mus musculus with 12 samples.

Results

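Elastic fibres and the microfibrils that support them are built from a small group of secreted proteins, and 10 genes of that group were followed through injured mouse sciatic nerve. The genes were taken by symbol from a table of 30452 genes: Eln, Fbn1, Fbn2, Fbln1, Fbln2, Fbln5, Efemp1, Efemp2, Mfap4 and Mfap5. All 10 were found, no symbol was repeated, and all 10 passed the filter on low counts, as did 19189 genes in all. RNA was sequenced 14 days after nerve injury from the bridge, the new tissue that joins the cut ends, and from the distal stump, the part of the nerve beyond the cut. Control nerves (CTL) came from P0-CreERT2:YFPfl/fl:Nf1+/+ mice and Nf1 KO nerves from P0-CreERT2:YFPfl/fl:Nf1fl/fl mice. Each of the 4 combinations of genotype and region had 3 libraries, and each library pooled 6 fragments of 0.5 mm from several mice.

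Both genotypes carried the P0-CreERT2 driver and the YFPfl/fl reporter, and tamoxifen is named in the labels only for Nf1 KO samples. The driver acts in myelinating Schwann cells, whereas most genes described here are made by fibroblasts and other mesenchymal cells, which the driver is not meant to reach. Nf1 encodes neurofibromin, an inhibitor of RAS. The question behind the study is which signals around an injured nerve promote or oppose tumours once Schwann cells lack Nf1.

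An elastic fibre has a core of cross-linked elastin surrounded by microfibrils. The microfibrils are polymers of fibrillins with bound glycoproteins, and they also hold latent TGF-beta in the matrix. Fibulins link elastin to microfibrils and bring in the lysyl oxidases that cross-link elastin. In nerve, elastic fibres and microfibrils lie mainly in the epineurium, around the perineurium and in vessel walls.

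Library totals ran from 18821445 to 38981819 estimated counts. Levels are given as CPM, counts scaled to library size with TMM factors. In the bridge Nf1 itself lay at 60.05 to 67.44 CPM in CTL and 42.43 to 54.72 in Nf1 KO (log2 -0.40, adjusted p = 0.0218, edgeR). The distal stump values were 57.02 to 69.7 and 42.3 to 43.14 (log2 -0.60, adjusted p = 0.0056). Several libraries stood apart. CTL bridge 1 and CTL bridge 3 carried 8750.3 and 7695.5 CPM of 8 skeletal muscle genes, against 1186.0 in CTL bridge 2. Nf1 KO distal 1 carried 2798.1 CPM of the same genes, against 15.11 and 98.03 in the other 2 libraries of its group, and 24.49% of its counts came from the non-coding gene Gm15662. That gene also held 9% of the counts in CTL distal 1, against 0.86% and 1.206% in its group, and 6.571% in Nf1 KO distal 3. Nf1 KO bridge 1 held 1240.7 CPM of 6 neutrophil genes, against 74.58 and 102.4 in its group, and Nf1 KO distal 1 held 566.8, against 229 and 220.6. The 4 erythroid genes summed to 1115.0 to 3042.6 CPM for CTL and 687 to 867.1 for Nf1 KO in the bridge. The mean of 14 Y-linked genes was 3.98 log2 CPM for the CTL bridge and 3.87 for the CTL distal stump, against 3.55 and 3.28 for Nf1 KO; the sex of the pooled mice is not in the labels. In whole tissue, fewer cells of a type and less RNA per cell cannot be told apart.

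Levels were compared between genes per kilobase of exon. Mfap5 was the most abundant member in both bridge groups, at 126.5 ± 5.257 CPM per kilobase (SD, n = 3) in CTL and 161.9 ± 15.51 in Nf1 KO. Efemp1 followed at 60.99 ± 4.738 and 50.51 ± 6.081, and the libraries of the 2 genes did not overlap in either bridge group. The 2 genes overlapped in CTL distal stump, with Mfap5 at 81.54 ± 18.57 and Efemp1 at 81.46 ± 2.471. In Nf1 KO distal stump Efemp1 at 84.1 ± 5.126 lay above Mfap5 at 72.34 ± 3.817 with no overlap.

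Mfap4, Fbn1, Efemp2 and Fbln2 occupied the middle of the order in the bridge, where Mfap4 overlapped Fbn1 and Efemp2 overlapped Fbln2 in both genotypes. Mfap4 stood only sixth in the distal stump, at 12.32 ± 2.766 in CTL and 8.658 ± 4.581 in Nf1 KO, and overlapped Eln. Fbln5 and Fbn2 were the 2 lowest members in every group. Fbn2 was last in both CTL groups, at 1.655 ± 0.215 and 1.745 ± 0.1603 CPM per kilobase. In Nf1 KO bridge Fbn2 at 4.043 ± 0.408 overlapped Fbln5 at 3.94 ± 0.345, and in Nf1 KO distal stump Fbn2 at 3.615 ± 0.4424 lay above Fbln5 at 2.669 ± 0.1398.

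**Figure D1:**
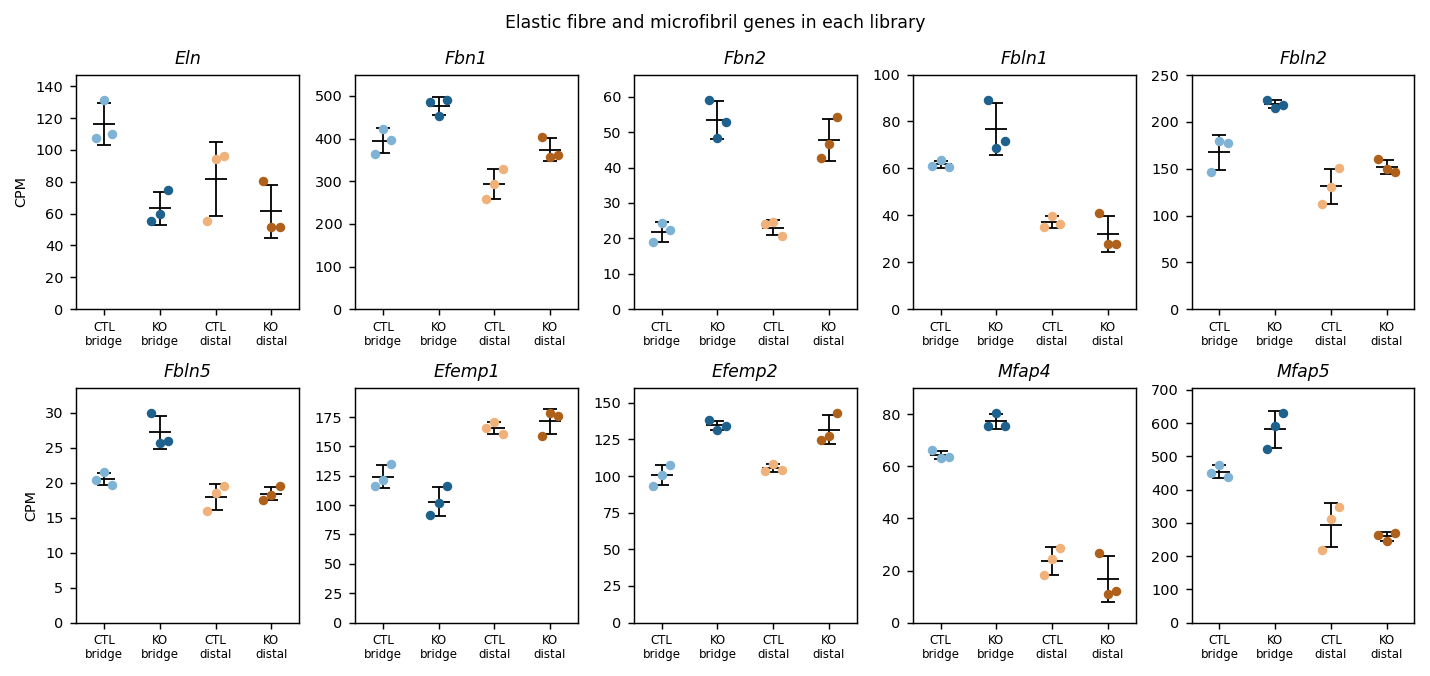
Level of each of the 10 genes in CPM (vertical axes, from 0, a separate scale for each gene) in the 4 groups; points are the 3 libraries of a group, the wide line their mean and the error bar ± 1 SD. Fbn2 is higher in both Nf1 KO groups, Mfap4 is higher in both bridge groups, and Eln is highest in CTL bridge.

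Loss of Nf1 went with more Fbn2 RNA in both regions and with less Eln RNA in the bridge. In the bridge, Fbn2, Efemp2, Fbln5 and Fbln2 rose and Eln fell, 5 of 10 members called at an adjusted p under 0.05 by edgeR's quasi-likelihood test with Benjamini-Hochberg adjustment, where 14.6% of all tested genes were called. Fbn2, Efemp2 and Fbn1 rose in the distal stump, 3 of 10 members against 8.14% of all tested genes. The median log2 difference of the 10 members was 0.33 in the bridge and 0.04 in the distal stump, against 0.00 over all genes in both. The bridge count was 1 without CTL bridge 1 and CTL bridge 3, when Fbn2 alone was called, and 3 without CTL bridge 1, 2 or 3 or Nf1 KO bridge 1 or 2. The distal stump count was 1 without CTL distal 1 or Nf1 KO distal 3. The genotype comparisons of the 2 regions share no library, but each shares libraries with the comparisons of regions below.

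**Figure D2:**
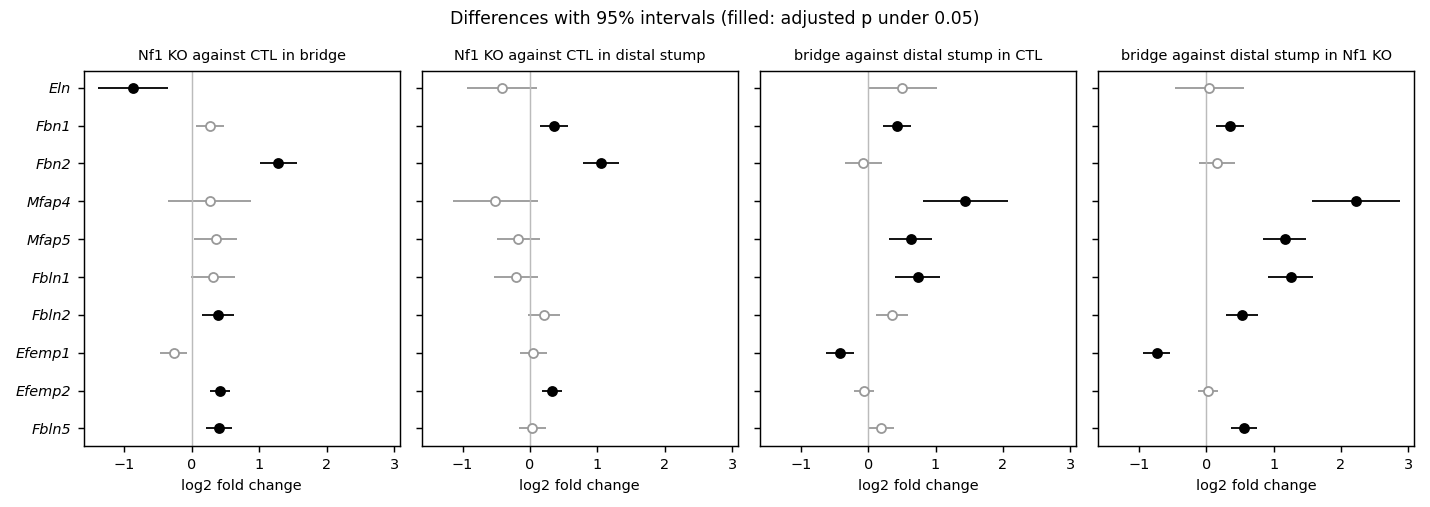
Difference of each gene in log2 units (horizontal axes) with its 95% interval, for Nf1 KO against CTL in each region and for bridge against distal stump in each genotype; filled points passed the adjusted test. Fbn2 lies to the right in both genotype comparisons, at 1.28 in the bridge and 1.05 in the distal stump, and Mfap4 in both comparisons of regions, at 1.44 in CTL and 2.22 in Nf1 KO.

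Elastin, encoded by Eln on chr5:134702593-134747323 (minus strand, GRCm38), forms the recoiling core of the fibre. Its 3 CTL bridge libraries lay at 107.3, 131.5 and 110.0 CPM and its 3 Nf1 KO bridge libraries at 55.47, 59.64 and 75.1. Every Nf1 KO bridge library was below every CTL bridge library, and the level in Nf1 KO was 54.5% of that in CTL. Eln fell by 0.87 on the log2 scale (SE 0.23, adjusted p = 0.0306, edgeR).

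The Eln call held in 13 of 21 alternatives, with log2 differences of -1.05 to -0.78 and adjusted p up to 0.134. It was lost without CTL bridge 1, 2 or 3, without CTL bridge 1 and 3 together (log2 -1.05), without Nf1 KO bridge 1 or 2, with a replicate term and with a term for Y-linked expression. Smooth muscle cells are a known source of elastin. In this comparison edgeR called 0 of 10 smooth muscle and pericyte markers, where 14.6% of all tested genes were called. The median log2 difference of these 10 markers was -0.205. Their summed level was 481.8 to 664.8 CPM in CTL bridge and 449 to 526.2 in Nf1 KO bridge. That sum includes Des, at 90.75 ± 51.25 CPM in CTL bridge and 27.77 ± 8.362 in Nf1 KO bridge (SD, n = 3). The part of smooth muscle cells in the Eln difference was not tested.

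The CTL distal stump libraries held 55.23, 94.09 and 96.3 CPM of Eln, and those of Nf1 KO held 80.58, 51.79 and 51.74. The groups overlapped, since CTL distal 1 was low and Nf1 KO distal 1 was high for its group. The log2 difference was -0.42 (95% interval -0.93 to 0.10, adjusted p = 0.326, edgeR). Between regions, the difference was 0.51 in CTL (adjusted p = 0.206) and 0.05 in Nf1 KO (adjusted p = 0.928), neither called by edgeR.

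Fibrillins are the large cysteine-rich proteins that polymerise into microfibrils. Fibrillin-2, from Fbn2, is best known from embryonic tissue and is usually low in adult matrix. Fbn2 lay at 18.84, 24.47 and 22.32 CPM in CTL bridge and at 59.14, 48.42 and 52.74 in Nf1 KO bridge. Its distal stump levels were 24.05, 24.49 and 20.62 in CTL and 42.66, 46.52 and 54.15 in Nf1 KO.

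Every Nf1 KO library stood above every CTL library in both regions. Fbn2 was 2.44-fold higher in the bridge (log2 1.28, SE 0.12, adjusted p = 3.1e-04, edgeR) and 2.07-fold higher in the distal stump (log2 1.05, SE 0.12, adjusted p = 8.8e-04). Both calls held in all 21 alternatives, including the fit without CTL bridge 1 and CTL bridge 3, where the bridge difference was 1.13 (adjusted p = 0.018). Fbn2 did not pass the test between regions in either genotype, with log2 differences of -0.07 in CTL (95% interval -0.34 to 0.20) and 0.16 in Nf1 KO (95% interval -0.10 to 0.43). Its interaction of genotype and region was 0.23 (95% interval -0.15 to 0.61, adjusted p = 0.608, edgeR).

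Fibrillin-1, from Fbn1 on chr2:125300594-125507993 (minus strand, GRCm38), is the main fibrillin of adult microfibrils and the gene mutated in Marfan syndrome. Fbn1 lay at 364.7, 423.1 and 396.4 CPM in CTL bridge and at 485.3, 452.3 and 491.0 in Nf1 KO bridge. The distal stump held 258.6, 292.5 and 328.0 for CTL and 403.9, 356.0 and 362.4 for Nf1 KO. The Nf1 KO libraries were above the CTL libraries in each region, by smaller margins than for Fbn2.

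Fbn1 was called in the distal stump (log2 0.35, SE 0.09, adjusted p = 0.0463, edgeR), a call that held in 5 of 21 alternatives and was lost when any single library other than CTL distal 3 was left out. In the bridge its difference was 0.27 (SE 0.09, adjusted p = 0.0833). Fbn1 was higher in bridge than in distal stump in CTL (log2 0.43, adjusted p = 0.0196, edgeR) and in Nf1 KO (log2 0.35, adjusted p = 0.032). A predicted gene on the opposite strand, Gm9913, overlaps 2442 exon bases of Fbn1 and held 1775 counts over the 12 libraries. Strand-aware counting is not stated in the sources used here.

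The balance of the 2 fibrillins was compared within each library, per kilobase of exon. The ratio of Fbn2 to Fbn1 was 0.0474 to 0.05307 in CTL bridge and 0.09826 to 0.1118 in Nf1 KO bridge, so that Fbn2 made up 4.526 to 5.04% and 8.947 to 10.06% of the fibrillin RNA. The distal stump ratios were 0.05771 to 0.08537 in CTL and 0.09693 to 0.1371 in Nf1 KO. The libraries of the 2 genotypes did not overlap in either region. The mean log2 ratio was higher in Nf1 KO by 1.02 in the bridge and by 0.69 in the distal stump (exact two-sided permutation p = 0.1 for each, the smallest that 3 against 3 allows).

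The ratio of Eln to Fbn1 went the other way. It was 0.4156 to 0.4655 in CTL bridge and 0.1712 to 0.2291 in Nf1 KO bridge. The distal stump gave 0.3199 to 0.4818 for CTL and 0.2138 to 0.2988 for Nf1 KO. The groups did not overlap in either region, with mean log2 differences of -1.15 and -0.76 (exact two-sided permutation p = 0.1 for each, the smallest possible). Between regions the ratio overlapped in both genotypes, with exact permutation p = 0.8 in CTL and 0.3 in Nf1 KO. The ratio of Fbn2 to Fbn1 was lower in the bridge than in the distal stump by 0.51 in CTL (log2 -0.51, exact permutation p = 0.1), with no overlap, and its log2 difference in Nf1 KO was -0.19 (exact permutation p = 0.4). These were 8 tests of ratios, of which 5 gave the smallest p that the design allows, 0.16 after Benjamini-Hochberg adjustment.

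**Figure D3:**
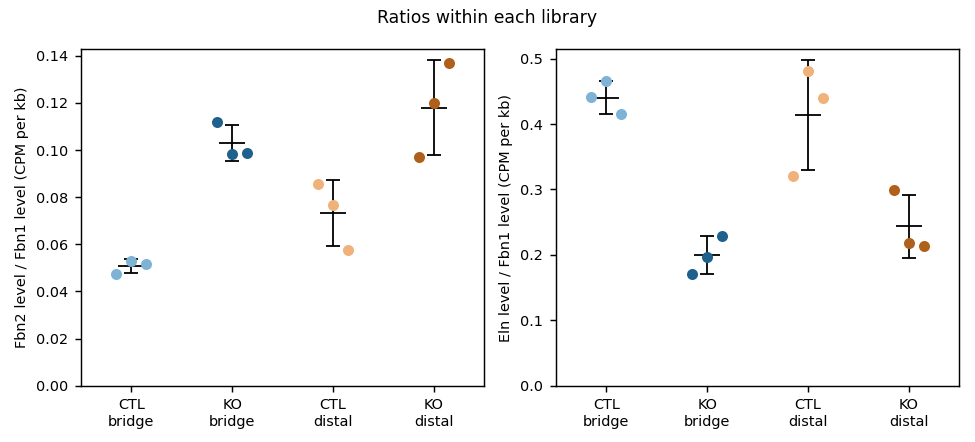
Ratio of Fbn2 to Fbn1 and of Eln to Fbn1 per kilobase of exon (vertical axes) in each library of the 4 groups; points are libraries, the wide line is the mean of 3 and the error bar ± 1 SD. Nf1 KO libraries lie above CTL libraries for Fbn2 to Fbn1 and below them for Eln to Fbn1 in both regions.

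Mfap4 and Mfap5 encode glycoproteins bound to microfibrils, and both were higher in the bridge than in the distal stump. Several cell type markers, given below, were also higher in the bridge. MFAP4, from Mfap4 on chr11:61485431-61488900 (plus strand, GRCm38), binds elastin, fibrillin and integrins. Mfap4 lay at 66.13, 63.25 and 63.53 CPM in CTL bridge and at 18.09, 24.26 and 28.67 in CTL distal stump. In Nf1 KO it lay at 75.59, 80.54 and 75.72 in the bridge and at 26.78, 10.94 and 12.2 in the distal stump.

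Every bridge library was above every distal stump library of its genotype, and within Nf1 KO distal stump library 1 was the highest at 26.78 CPM. Mfap4 was 2.71-fold higher in the bridge in CTL (log2 1.44, SE 0.29, adjusted p = 0.0129, edgeR) and 4.65-fold higher in Nf1 KO (log2 2.22, SE 0.29, adjusted p = 0.0012). Between genotypes the difference was 0.27 in the bridge (adjusted p = 0.594, edgeR) and -0.51 in the distal stump (adjusted p = 0.328). Without Nf1 KO distal 1, the library rich in muscle genes, Mfap4 fell by 1.04 in the distal stump and was called (adjusted p = 0.00677, edgeR). That library also held 527.4 CPM of smooth muscle and pericyte markers, against 388.3 and 395.6 in the other 2. It was highest too for epineurial or adventitial (499.5 against 388.3 and 370.2), fibroblast (13498.2 against 11691.3 and 12071.8) and endothelial markers (264.7 against 216.2 and 222.1). It was lowest for Schwann cell, macrophage, endoneurial fibroblast and chondrocyte or tendon markers. The part of these cells in its Mfap4 level was not tested.

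MAGP-2, from Mfap5 on chr6:122505845-122529290 (plus strand, GRCm38), is a small glycoprotein that binds fibrillins. Mfap5 lay at 450.8, 474.4 and 437.1 CPM in CTL bridge and at 218.3, 312.5 and 347.1 in CTL distal stump. In Nf1 KO it lay at 520.6, 592.3 and 630.2 in the bridge and at 264.0, 244.3 and 270.6 in the distal stump. The regions did not overlap in either genotype, and CTL distal stump was the most spread of the 4 groups.

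Mfap5 was 1.55-fold higher in the bridge in CTL (log2 0.63, SE 0.14, adjusted p = 0.0221, edgeR) and 2.24-fold higher in Nf1 KO (log2 1.16, SE 0.15, adjusted p = 9.3e-04). The Nf1 KO bridge libraries all lay above those of CTL bridge, but the difference of 0.36 did not pass the test (95% interval 0.04 to 0.67 before adjustment, adjusted p = 0.129, edgeR). The distal stump difference was -0.17 (adjusted p = 0.535).

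Fibulins form the links between elastin, microfibrils and basement membranes. The 5 members of this kind split by region and genotype, and the 250 bases before the start sites of 3 of them are shown because these genes differ most clearly in pattern: Fbln1 was higher in the bridge, Efemp1 in the distal stump, and Efemp2 in Nf1 KO. The windows come from RefSeq (GRCm38.p6) and are written 5′ to 3′ on the plus strand, on which these 3 genes lie. Windows were kept for 6 of the 10 members, and Fbn2, Eln, Mfap4 and Mfap5 have none here. That count does not show what RefSeq lists for the members without a window. Where RefSeq lists more than 1 start, the nearest to the gene's annotated start was taken. Capitals mark matches to 5 motifs searched on both strands. The letters of the GC box were GGGCGG. The AP-1 site was searched as TGANTCA, where N is any base. The TATA box was searched with the letters TATAAA, and the TEAD site with the letters GGAATG. The fifth motif was the CCAAT box. The Fbln1 window is chr15:85205699-85205948, the Efemp1 window chr11:28852955-28853204 and the Efemp2 window chr19:5473696-5473945.
Fbln1: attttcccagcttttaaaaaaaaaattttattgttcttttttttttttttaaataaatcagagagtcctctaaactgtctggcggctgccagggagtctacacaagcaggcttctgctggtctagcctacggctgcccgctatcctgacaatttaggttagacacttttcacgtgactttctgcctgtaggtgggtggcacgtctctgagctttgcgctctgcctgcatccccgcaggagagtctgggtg
Efemp1: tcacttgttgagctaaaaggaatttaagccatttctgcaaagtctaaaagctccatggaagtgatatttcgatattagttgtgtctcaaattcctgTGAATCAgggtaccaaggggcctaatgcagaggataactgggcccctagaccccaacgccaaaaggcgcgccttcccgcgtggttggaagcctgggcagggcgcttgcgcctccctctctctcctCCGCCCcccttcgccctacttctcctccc
Efemp2: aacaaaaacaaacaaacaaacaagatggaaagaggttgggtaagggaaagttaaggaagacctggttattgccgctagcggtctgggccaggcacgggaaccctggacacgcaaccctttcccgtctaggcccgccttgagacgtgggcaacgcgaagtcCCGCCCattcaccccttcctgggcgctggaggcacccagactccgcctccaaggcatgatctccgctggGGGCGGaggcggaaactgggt

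The Fbln1 window held none of the 5 motifs and had 46.4% G and C, below the median of 52.4% over 32851 windows of this length. The Efemp1 window held an AP-1 site starting 154 bases before the start and a GC box 29 bases before it. The Efemp2 window held GC boxes 90 and 21 bases before the start. Over all windows, 32.74% held a GC box, 6.749% an AP-1 site, 12.37% a TATA box, 33.85% a CCAAT box and 12.64% a TEAD site. A match describes the letters in the window and nothing about binding there.

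Fibulin-1, from Fbln1 on chr15:85205949-85286535 (plus strand, GRCm38), lies in elastic fibres and basement membranes. Fbln1 lay at 60.96, 63.58 and 60.71 CPM in CTL bridge and at 35.11, 39.89 and 36.41 in CTL distal stump. In Nf1 KO it lay at 89.29, 68.87 and 71.84 in the bridge and at 41.11, 27.67 and 27.76 in the distal stump. The regions were separate in both genotypes, and library 1 was the highest of its group in both Nf1 KO groups.

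Fbln1 was 1.66-fold higher in the bridge in CTL (log2 0.73, SE 0.15, adjusted p = 0.0144, edgeR) and 2.38-fold higher in Nf1 KO (log2 1.25, SE 0.15, adjusted p = 8.0e-04). Between genotypes it was not called, at 0.31 in the bridge (adjusted p = 0.192) and -0.21 in the distal stump (adjusted p = 0.463, edgeR). Without Nf1 KO distal 1 the distal stump difference was -0.43 and was called (adjusted p = 0.0465), and the bridge difference of 0.32 also passed (adjusted p = 0.0487).

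Fibulin-2, from Fbln2 on chr6:91212455-91272540 (plus strand, GRCm38), binds elastin and fibrillin-1. Fbln2 lay at 146.2, 179.2 and 177.8 CPM in CTL bridge and at 223.7, 215.0 and 218.4 in Nf1 KO bridge. The distal stump held 112.3, 130.4 and 150.4 for CTL and 160.0, 149.7 and 146.3 for Nf1 KO. Nf1 KO bridge was the highest group, with no library of another group reaching it.

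Fbln2 rose 1.30-fold in Nf1 KO bridge (log2 0.38, SE 0.11, adjusted p = 0.0368, edgeR), a call that held in 11 of 21 alternatives and was lost without any single library of the 2 bridge groups. The distal stump difference was 0.21 (adjusted p = 0.269). Fbln2 was higher in the bridge in Nf1 KO (log2 0.53, adjusted p = 0.00937, edgeR), and in CTL its difference was 0.36 (adjusted p = 0.062).

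The short fibulins, fibulin-5, fibulin-3 and fibulin-4, are close relatives, and loss of fibulin-4 or fibulin-5 in mice disrupts elastic fibres. Fibulin-5, from Fbln5 on chr12:101746565-101819055 (minus strand, GRCm38), binds elastin and lysyl oxidase-like enzymes. Fbln5 lay at 20.37, 21.52 and 19.69 CPM in CTL bridge and at 29.97, 25.68 and 26.03 in Nf1 KO bridge. The distal stump held 15.89, 18.55 and 19.52 for CTL and 17.56, 18.3 and 19.48 for Nf1 KO.

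Nf1 KO bridge was again the highest group, and the 2 distal stump groups overlapped. Fbln5 rose 1.33-fold in Nf1 KO bridge (log2 0.41, SE 0.09, adjusted p = 0.0124, edgeR). Its log2 difference in the distal stump was 0.04 (95% interval -0.16 to 0.23, adjusted p = 0.866). Fbln5 was higher in the bridge in Nf1 KO (log2 0.56, SE 0.09, adjusted p = 0.00258), and in CTL its difference was 0.19 (adjusted p = 0.214, edgeR).

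Fibulin-4, from Efemp2 on chr19:5473954-5482517 (plus strand, GRCm38), brings lysyl oxidase to elastin. Efemp2 lay at 93.57, 100.8 and 107.3 CPM in CTL bridge and at 138.0, 131.6 and 134.1 in Nf1 KO bridge. The distal stump held 103.5, 108.4 and 104.2 for CTL and 124.5, 127.4 and 143.1 for Nf1 KO. Genotype separated the libraries in each region and region did not. Mus81 on the opposite strand overlaps 173 exon bases of Efemp2, and Mapk7 likewise 89 of Mfap4. Also on the opposite strand, Gm30003 overlaps 267 exon bases of Eln and Gm26507 overlaps 129 of Fbn2. Neither of these Gm genes was listed with counts.

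Efemp2 rose 1.34-fold in the bridge (log2 0.42, SE 0.07, adjusted p = 0.00334, edgeR) and 1.25-fold in the distal stump (log2 0.32, SE 0.07, adjusted p = 0.017). These calls held in 20 and 16 of 21 alternatives. Without CTL bridge 1 and CTL bridge 3 the bridge difference was again 0.42, with an adjusted p of 0.0553. Between regions the log2 difference was -0.07 in CTL (95% interval -0.22 to 0.08) and 0.03 in Nf1 KO (95% interval -0.12 to 0.18). Across the 12 libraries the log2 CPM of Efemp2 and Fbn2 had a Pearson correlation of 0.9742, as a description of libraries that share their groups.

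Fibulin-3, from Efemp1 on chr11:28853204-28926743 (plus strand, GRCm38), was higher in the distal stump, the reverse of the other members that differed by region. Efemp1 lay at 116.5, 121.2 and 135.1 CPM in CTL bridge and at 165.7, 171.1 and 161.0 in CTL distal stump. In Nf1 KO it lay at 91.24, 101.5 and 115.9 in the bridge and at 159.3, 178.5 and 176.1 in the distal stump. The regions did not overlap in either genotype.

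Efemp1 was lower in the bridge by 0.42 on the log2 scale in CTL (log2 -0.42, SE 0.09, adjusted p = 0.0189, edgeR) and by 0.74 in Nf1 KO (log2 -0.74, SE 0.09, adjusted p = 9.1e-04). Between genotypes its difference was -0.27 in the bridge (adjusted p = 0.0715) and 0.05 in the distal stump (adjusted p = 0.823, edgeR). Its correlation with Fbln1 across the 12 libraries was -0.9531 and with Mfap4 -0.9098, again as a description.

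By region, 5 of 10 members were called in CTL, 4 higher and 1 lower in the bridge, where 9.85% of all tested genes were called. In Nf1 KO 7 of 10 were called, 6 higher and 1 lower in the bridge, where 15.2% of all tested genes were called. The members higher in both genotypes were Mfap4, Mfap5, Fbln1 and Fbn1, and the member lower in both was Efemp1. Without CTL bridge 1 and CTL bridge 3, 0 of 10 members were called in CTL, with 1 library left in CTL bridge: Mfap4 then differed by 1.41, Fbln1 by 0.77, Mfap5 by 0.69, Fbn1 by 0.53 and Efemp1 by -0.46 on the log2 scale. Leaving out single libraries left 3 calls in CTL when CTL bridge 1 was dropped, 2 when it was CTL bridge 2, and 1 when it was CTL distal 1 or CTL distal 2. In Nf1 KO 6 or 7 members were called in all 21 alternatives.

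The summed level of the 10 genes was 339.5 ± 11.93 CPM per kilobase (SD, n = 3) for the CTL bridge and 395.1 ± 19.43 for the Nf1 KO bridge. The distal stump sums were 270.8 ± 29.96 for CTL and 275.8 ± 8.025 for Nf1 KO. Mfap5 made up 37.28% of it in CTL bridge and 40.91% in Nf1 KO bridge, and Efemp1 17.96% and 12.75%. Mfap5 in the distal stump made up 29.83% in CTL and 26.22% in Nf1 KO, and Efemp1 30.35% and 30.54%.

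Markers of cells that make or could carry these RNAs also differed between the groups. The 6 fibroblast markers summed to 17413.6 to 18243.7 CPM for CTL and 20119.4 to 20395.1 for Nf1 KO in the bridge, and to 9327.5 to 11128.7 and 11691.3 to 13498.2 CPM in the distal stump. Their directions were mixed between genotypes: in the bridge 2 of 6 were called higher in Nf1 KO, Col1a1 (log2 0.77) and Col1a2 (0.43), and 1 lower, Dcn (-0.37, adjusted p = 0.0061, edgeR), while Pdgfra differed by 0.03 (adjusted p = 0.851). The distal stump had 3 of 6 higher and 0 lower. The 7 epineurial or adventitial markers summed to 795.3 to 846.7 CPM for CTL and 547 to 729.8 for Nf1 KO in the bridge, and to 515 to 705.4 and 370.2 to 499.5 CPM in the distal stump. Of 8 perineurial markers, 6 were lower in Nf1 KO bridge and 5 in Nf1 KO distal stump, and of 6 adipocyte markers 6 were lower in Nf1 KO bridge (edgeR). The 8 Schwann cell markers summed to 8340.5 to 10986.9 CPM for CTL and 5063.3 to 6606.0 for Nf1 KO in the bridge, and to 7144.2 to 7992.3 and 4583.8 to 5728.6 in the distal stump, with 4 and 3 of 8 called lower in Nf1 KO. Of 8 endothelial markers 1 was lower in Nf1 KO bridge and 4 in Nf1 KO distal stump, with sums of 359.2 to 399.1 against 323 to 336.4 CPM and of 296.3 to 343.3 against 216.2 to 264.7 CPM. The 6 endoneurial fibroblast markers summed to 155.5 to 170.5 CPM for CTL and 196.8 to 213.6 for Nf1 KO in the bridge. Their distal stump sums were 182.7 to 188.6 and 212 to 231.2. Of these 6, 2 were called higher and 0 lower in Nf1 KO bridge, and 1 higher and 2 lower in Nf1 KO distal stump. The 6 chondrocyte or tendon markers summed to 188.9 to 249.1 and 282.3 to 364 CPM in the bridge. Their distal stump sums were 272.3 to 377 and 398.6 to 426.6. Of 5 tested chondrocyte or tendon markers, 2 were higher and 1 lower in Nf1 KO bridge, and 1 higher and 0 lower in Nf1 KO distal stump. All genes of these lists were above 0 in every group. Of all tested genes, 7.81% were called higher and 6.76% lower in Nf1 KO bridge, and 4.45% and 3.69% in Nf1 KO distal stump. The part of these cells in the differences of the 10 genes was not tested.

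No member passed the test of the interaction, that is, of whether the genotype difference itself differed between regions. Among all 19189 genes edgeR called 0 at an adjusted p under 0.05 and limma-voom 0. DESeq2 called 428 of the 13493 genes to which it gave an adjusted p (3.17%), none of them a member. At an unadjusted p under 0.05 edgeR gave 4 of 10 members and 13.2% of all genes. These were Fbln5 (log2 0.37, adjusted p = 0.257), Mfap5 (0.53, adjusted p = 0.305), Efemp1 (-0.32, adjusted p = 0.327) and Fbln1 (0.52, adjusted p = 0.328). That Fbln5, Fbln2 and Eln were called in the bridge and not in the distal stump therefore does not show that their genotype differences differ.

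Elastic fibres also need enzymes, other microfibril proteins, proteases and receptors, and 46 such genes were read in lists made by known function; 45 were tested and Mmp7 was too low. In Nf1 KO bridge 14 were higher and 3 lower, where 7.81% of all genes were called higher and 6.76% lower. In Nf1 KO distal stump 10 were higher and 2 lower, against 4.45% and 3.69%. The medians of the 45 were 0.21 and 0.12 on the log2 scale, against 0.00 over all genes. Calls of pathway genes, unlike those of the members, were not followed through the alternative fits.

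The lysyl oxidases cross-link elastin and collagen, and 5 of 5 rose in Nf1 KO bridge, where 7.81% of all genes were called higher. Loxl1, which acts on elastin, rose by 0.91 (SE 0.14, adjusted p = 0.00285, edgeR), from a mean of 45.08 CPM to 84.73. Lox rose by 0.65 (adjusted p = 0.0228), Loxl2 by 0.61 (adjusted p = 0.0222), Loxl3 by 0.29 (adjusted p = 0.0247) and Loxl4 by 0.93 (adjusted p = 0.0114). The distal stump had 2 of 5 higher, against 4.45% of all genes: Loxl2 by 0.64 (adjusted p = 0.0269) and Loxl3 by 0.48 (adjusted p = 0.00393). The cross-linking enzymes and Eln thus had opposite signs in the bridge.

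Among other microfibril genes, Mfap2, the gene of the glycoprotein MAGP-1, rose in both regions: by 0.87 in the bridge (SE 0.10, adjusted p = 5.9e-04, edgeR) and by 1.04 in the distal stump (SE 0.10, adjusted p = 3.1e-04). Emilin1, which lies where elastin meets microfibrils, rose by 1.09 in the bridge (adjusted p = 0.00458). Vwa1, a matrix protein of nerve and cartilage, fell by 0.36 in the bridge (adjusted p = 0.0123). Adamtsl5 fell in the distal stump by 0.39 (adjusted p = 0.0255) and Mmrn2, an endothelial matrix protein, by 0.44 (adjusted p = 0.0366). In all, 2 of 14 rose and 1 fell in the bridge, and 2 rose and 2 fell in the distal stump. Over all genes, 7.81% were called higher and 6.76% lower in the bridge, and 4.45% and 3.69% in the distal stump.

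Of the proteases, Mmp14, a membrane-bound collagenase, rose by 0.63 in the bridge (adjusted p = 0.00138, edgeR) and by 0.48 in the distal stump (adjusted p = 0.00706). Ctsl, a lysosomal protease, fell by 0.52 in the bridge (adjusted p = 0.0296). Mmp2, a gelatinase that also cleaves elastin, rose by 0.65 in the distal stump (adjusted p = 0.00299), and Ctsk, an elastin-cleaving cathepsin, by 0.50 (adjusted p = 0.00612). Of 10 proteases tested, 1 rose and 1 fell in the bridge, where 7.81% of all genes were called higher and 6.76% lower. In the distal stump 3 rose and 0 fell, against 4.45% and 3.69% of all genes.

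The integrin list holds receptors that bind fibrillins and fibulins through short peptide motifs. In the bridge Itga5 rose by 0.87 (adjusted p = 4.8e-04, edgeR) and Itgb3 by 0.42 (adjusted p = 0.00682), and Itgb8, whose product activates latent TGF-beta, fell by 0.36 (adjusted p = 0.0166). Itgb3 rose in the distal stump by 1.08 (SE 0.08, adjusted p = 7.3e-05). Of 9 integrins, 5 rose, 1 fell and 3 were not called in the bridge, and 2 rose and 7 were not called in the distal stump. The latent TGF-beta binding proteins showed 1 of 4 higher in each region and the 3 genes of the elastin receptor complex 0 of 3. Beside these counts stand the shares over all genes, 7.81% higher and 6.76% lower in the bridge and 4.45% and 3.69% in the distal stump.

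**Figure D4:**
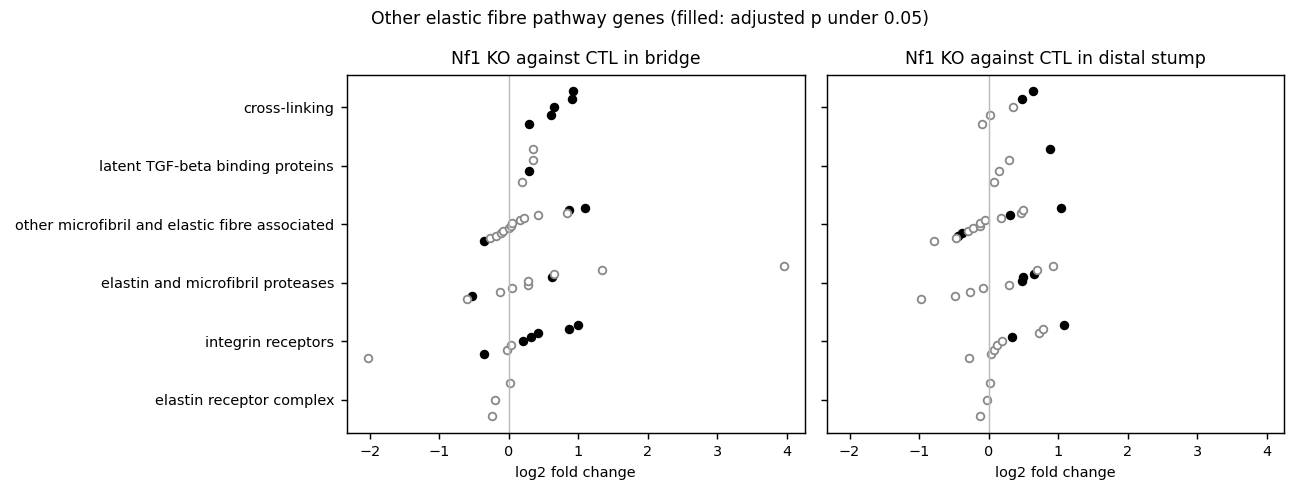
Difference between Nf1 KO and CTL in log2 units (horizontal axes, the same scale in both panels) for the tested genes of 6 lists around elastic fibres, in the bridge and in the distal stump; points are genes and filled points passed the adjusted test. All 5 cross-linking enzymes lie to the right and are filled in the bridge, and 2 of 5 are filled in the distal stump.

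Between regions, 14 of 45 pathway genes were higher and 6 lower in CTL bridge than in CTL distal stump, where 5.15% of all genes were called higher and 4.71% lower. In Nf1 KO 16 were higher and 7 lower, against 7.78% and 7.41%. Emilin3 was higher in the bridge in both genotypes, by 2.33 in CTL (SE 0.30, adjusted p = 0.00277, edgeR) and by 1.91 in Nf1 KO (SE 0.30, adjusted p = 0.00248), at mean levels of 4.333 and 4.46 CPM. Mfap2 was also higher in the bridge in both, by 0.79 in CTL (adjusted p = 0.00238) and by 0.61 in Nf1 KO (adjusted p = 0.00256). Adamtsl2, whose product binds microfibrils, was higher in the bridge by 1.26 in CTL (SE 0.30, adjusted p = 0.0254), at 16.52 CPM against 6.859, and by 2.88 in Nf1 KO (SE 0.31, adjusted p = 5.9e-04), at 29.42 CPM against 4.002.

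The latent TGF-beta binding protein gene Ltbp4, whose product guides elastin assembly, was higher in the bridge by 0.78 in CTL (adjusted p = 0.00775) and by 1.06 in Nf1 KO (adjusted p = 9.9e-04, edgeR). Loxl1 was higher in the bridge by 0.74 in CTL (adjusted p = 0.0119) and by 1.31 in Nf1 KO (adjusted p = 6.1e-04). Lox was higher by 1.13 in Nf1 KO (adjusted p = 0.00171), and its difference in CTL was 0.39 (adjusted p = 0.154). Mmp14 was higher by 0.51 in CTL (adjusted p = 0.00639) and by 0.66 in Nf1 KO (adjusted p = 0.00102, edgeR). The 6 higher genes of smallest p in CTL also included Itgb3 (0.65, adjusted p = 0.00227), Ctsk (0.67, adjusted p = 0.00254) and Adamts10 (0.51, adjusted p = 0.00561). Thsd4, whose product promotes fibrillin-1 assembly, was lower in the bridge in CTL (log2 -1.09, adjusted p = 0.00215) and Nf1 KO (-0.86, adjusted p = 0.00219, edgeR). Also lower in both were Cela1, an elastase (-0.89, adjusted p = 0.00258, and -1.14, adjusted p = 4.2e-04), and Vwa1 (-0.30, adjusted p = 0.0372, and -0.83, adjusted p = 4.0e-04). The same held for Itgb8 (-0.44, adjusted p = 0.0109, and -0.53, adjusted p = 0.00271) and Ctsa (-0.45, adjusted p = 0.0418, and -0.53, adjusted p = 0.0162). Ctss was called lower only in CTL (-0.60, adjusted p = 0.0466) and Neu1 only in Nf1 KO (-0.36, adjusted p = 0.0178). Of 6 fibroblast markers, 5 were higher in the bridge in CTL and 3 in Nf1 KO, with 0 lower (edgeR). Of 10 smooth muscle and pericyte markers 3 and 4 were higher, and of 8 endothelial markers 2 and 6, with 0 lower. Going the other way, 3 of 6 macrophage markers were lower in the bridge in each genotype, and 2 and 4 of 8 Schwann cell markers. Of 7 epineurial or adventitial markers, 2 were higher and 0 lower in CTL, and 3 higher and 1 lower in Nf1 KO. The 8 perineurial markers had 2 higher and 1 lower, and 1 higher and 3 lower. The 6 endoneurial fibroblast markers had 0 higher and 2 lower, and 1 higher and 2 lower. Over all genes the shares were 5.15% higher and 4.71% lower in CTL, and 7.78% and 7.41% in Nf1 KO. The part of these cell types in the differences between regions, of the members and of the pathway genes, was not tested.

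The genes most like each member across the 12 libraries were found by Pearson correlation of log2 CPM among 13117 genes, as a description in which libraries share their groups. For Fbn2 they were Cxcl14 (0.9812), Rbmxl1 (0.9799) and Spry4 (0.9756), and for Efemp2 Lrrc59, Col8a1 and Pif1 (0.9721 to 0.9749). For Fbn1 they were Tmem45a (0.9803), Ctsk (0.9796) and Col5a2 (0.9772), and for Fbln2 Kdm5b, Loxl1 and Ccdc8 (0.9637 to 0.9671). For Mfap4 they were Zim1, Aplnr and Mest (0.9725 to 0.9817), for Mfap5 Spon2, Nfix and Mcc (0.9711 to 0.9793), and for Fbln1 Neo1, Igsf10 and Gnas (0.9756 to 0.9863).

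Fbln5 was most like Fam171a1, Fhl2 and Il1rl2 (0.9556 to 0.9729) and Efemp1 most like Dbi, Slc17a8 and Aagab (0.9744 to 0.9778). Eln had the weakest likeness, with Kcnj12 (0.9182), Armcx5 (0.9077) and Acaa2 (0.8936). Among the members themselves Eln correlated at -0.7307 with Fbn2 and at -0.7336 with Efemp2, and at 0.02486 with Fbn1.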

How the data were processed

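Total RNA was depleted of ribosomal RNA and made into directional libraries with 15 PCR cycles, per the labels' protocols. CASAVA 1.8.2, cutadapt 1.2.1, DESeq2 and the build mm10 are named in the submitters' processing notes; the aligner is not given in the sources used here, nor is the counter. The table the authors deposited holds estimated counts for 30452 genes in 12 libraries, in whole numbers used without rounding. They are not plain read counts for very short genes: the smallest of 957 values above 0 for genes of at most 120 bases is 19. Positions and exon lengths came from GENCODE M21 (GRCm38), in which 30202 gene IDs were found.

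A single edgeR 4.0.16 model in R 4.3.3 covered all 12 libraries, each group having its own coefficient (TMM factors, filterByExpr by group, glmQLFit, glmQLFTest). P-values were adjusted by Benjamini-Hochberg over 19189 tested genes and called under 0.05; 11263 genes were not tested, 5433 of them without any count. SEs were derived from the F statistic. DESeq2 1.42.0 and limma 3.58.1 (voom) were alternatives, with other size factors, no filter, only the groups compared, a replicate term, Gm15662 left out, a Y-linked covariate, and libraries left out. On simulated counts for the 19189 genes, recovery was read for 67 genes changed by log2 1. It was 55.2 and 59.7% in the genotype comparisons (bridge, distal stump) and 56.7 and 59.7% in the comparisons of regions (CTL, Nf1 KO). In the interaction it was 44.8%. The changed genes were drawn at random from tested genes of any level. They were far fewer than the genes called in the group comparisons of the data. These shares therefore do not give the power for the members. All 10 members are named, with up to 6 called pathway genes of smallest p per direction and comparison and the 3 genes most like each member; lysyl oxidases and second-genotype values of Ltbp4, Mfap2 and Adamtsl2 beyond that rule were chosen after their values were seen. Members and lists were chosen with earlier results of these data known. Samples are pools of mice that the labels call independent.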

Additional observations from a re-analysis of the deposited data

How the results depend on the processing

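Of 1040 recomputed log2 differences of the members, 950 kept their direction and side of the threshold, 68 lost a call, 12 gained one and 10 turned sign. Fbn2 was called in both regions in all 21 alternatives. In the bridge, 5 members were called between genotypes; without CTL bridge 1 and 3 the count was 1, with 1 library left in CTL bridge, and leaving out single libraries gave 3 to 6. In the distal stump the count of 3 became 1 when only the groups compared were fitted and 1 with the Y-linked covariate, and 1 to 4 with single libraries left out. Between regions in CTL the count of 5 became 3 with only the groups compared, 0 without CTL bridge 1 and 3, and 1 to 6 with single libraries left out. In Nf1 KO the 7 calls between regions became 6 to 7. Values that turned sign were not called, and are given with their range over single libraries left out: Fbln5 in the distal stump (-0.0458 and -0.0053 without CTL distal 1 and Nf1 KO distal 3; -0.0458 to 0.0983), Efemp1 in the distal stump (-0.0018 with the Y-linked covariate), Fbn2 between regions in CTL (0.0827 without CTL bridge 1 and 3, 0.0209 without CTL bridge 1; -0.1591 to 0.0209), Eln between regions in Nf1 KO (-0.0919, -0.0625 and -0.0609 without Nf1 KO bridge 3, distal 2 and distal 3; -0.0919 to 0.2947), Efemp2 between regions in Nf1 KO (-0.0052 without Nf1 KO distal 1; -0.0052 to 0.0951), the interaction of Fbn1 (0.0011 without CTL distal 1; -0.1697 to 0.0011), and the ratio of Eln to Fbn1 between regions in CTL (-0.0647 without CTL distal 1; -0.0647 to 0.2307). Over all tested genes, the interaction had 0 calls in edgeR, and DESeq2 called 428 of 13493. Genotype in the bridge had 2795 calls in edgeR, and 2278 with only the groups compared. Genotype in the distal stump had 1562, and 889 with only the groups compared. Region in CTL had 1891, and 869 with only the groups compared. Without CTL bridge 1 and 3, which leaves 1 library in CTL bridge, the counts of the comparisons with CTL bridge were lower. The cause was not tested.

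Same-numbered samples of different groups correlated at -0.05833 to 0.12 in 18 pairs, 1 of them above 0.1. Differently numbered samples correlated at -0.09188 to 0.087 in 36 pairs. Between the regions of a genotype, same-numbered samples correlated at 0.01227 to 0.03248 in CTL and at 0.02549 to 0.12 in Nf1 KO. Differently numbered ones correlated at -0.0418 to 0.0107 and at -0.09188 to 0.03184. These values do not decide whether the numbers pair bridge and distal stump, and the main fit did not pair them. With a replicate block 4 members were called between genotypes in the bridge, 2 in the distal stump, 5 between regions in CTL, 6 in Nf1 KO and 0 in the interaction.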
